A study of Homo sapiens with 12 samples.

Results

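The expression of *MIB1*, its paralog *MIB2* and the Notch ligands and receptors *JAG1*, *JAG2*, *DLL1*, *DLL4*, *NOTCH1*, *NOTCH2* and *NOTCH3* was followed across 12 RNA-seq libraries of NCIH838 MIB1-iKO cells. These 9 genes were taken from the count table by their Ensembl identifiers, out of 58302 identifiers, because they make up the pathway in which MIB1 is best known. NCIH838 is a lung cancer cell line, and MIB1-iKO is a single-cell clone of it that carries a Dox-inducible Cas9 and a guide RNA against *MIB1*. The libraries formed 4 groups of 3. All cells were kept for 3 days in 50 nmol/L LDN, a small-molecule inhibitor of BMP receptor signaling, in medium that held 0.5 μg/mL Dox for MIB1 KO and no Dox for MIB1 WT cells. All of them then received 10 ng/mL BMP4 for 24 hours, and the inhibitor was either kept at 50 nmol/L (BMP-off) or replaced by DMSO (BMP-on). Both BMP states therefore contained BMP4, and the response described here is that to LDN withdrawal in its presence. Every KO library and no WT library had Dox, so that loss of MIB1, Dox exposure and Cas9 cutting cannot be told apart. All cells came from 1 clone, and the labels do not name separate cultures, so that p-values measure the spread between these samples.

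Notch receptors and their ligands are both membrane proteins, and signaling needs contact between cells. MIB1 is a RING-type E3 ubiquitin ligase that attaches ubiquitin to the intracellular tails of DLL and JAG ligands, and endocytosis of the ubiquitylated ligand exerts the pull that exposes the receptor to ADAM proteases. γ-Secretase then releases the intracellular domain, which joins RBPJ and MAML proteins on target genes such as *HES1* and *HEY1*. MIB2 is a related ligase with the same kind of activity. These are events on proteins, and the RNA levels reported here measure neither ligand endocytosis nor receptor cleavage. The comparisons ask whether the genes of this pathway changed in RNA when MIB1 was lost, when BMP signaling was released, and whether the BMP response differed between WT and KO cells.

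Total counts per library ranged from 19124010 to 29498000, and 17188 genes passed the filter on low counts and were tested. The cells expressed the epithelial keratins KRT18, KRT8 and KRT7, whereas KRT19 and the lung lineage genes NKX2-1, SFTPB and SFTPC had 2 counts or fewer in every library. EPCAM and CDH1, the other epithelial markers listed, were low, at 2.53 to 5.08 and 1.13 to 1.95 RPKM. Mean EPCAM was 4.83 RPKM in WT BMP-off, 3.24 in WT BMP-on, 4.32 in KO BMP-off and 2.75 in KO BMP-on. Of 5 epithelial markers tested for BMP, 1 was higher and 1 lower in WT cells, and 2 were higher and 1 lower in KO cells. NAPSA, the other lung lineage gene listed, had 6 to 27 counts. PTPRC, which marks blood cells, had 0 counts. Of the 4 fibroblast markers, COL1A1 and PDGFRB were tested and both were higher with BMP-on in KO cells, while DCN had 3 counts or fewer and COL1A2 5 or fewer in every library. The summed fibroblast marker level was 1.93 to 3.09 RPKM in KO BMP-off and 5.37 to 6.49 RPKM in KO BMP-on, 2.26 to 3.25 RPKM in WT BMP-off and 4.53 to 4.81 RPKM in WT BMP-on, and its part in the changes described here was not tested. The endothelial markers summed to at most 0.18 RPKM in any library and the blood markers to at most 0.221 RPKM. Libraries also differed in a trend of their counts with transcript GC content, strongest in KO BMP-off replicate 2, and values with a correction for this trend, called the GC trend correction, are also given for the genes it moves most.

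Levels were compared between genes on the RPKM scale, which accounts for transcript length. The receptor *NOTCH2* was the most abundant of the 9, with a mean of 71.3 ± 8.96 RPKM (SD, n = 12) and a range of 59.6 to 83.6, above 94.4% of the genes tested. The receptor *NOTCH3* followed with 30.5 ± 4.22 RPKM (SD, n = 12), between 22.1 and 37.8. Among ligands, *JAG1* was highest with 12.1 ± 1.20 RPKM (SD, n = 12), between 10.6 and 14.2. The ranges of these 3 genes did not overlap. *JAG2* reached 4.08 ± 0.72 RPKM (SD, n = 12), *MIB2* 1.77 ± 0.59 and *NOTCH1* 1.31 ± 0.16. The ranges of *JAG2* (2.42 to 5.06 RPKM) and *MIB2* (0.64 to 2.83 RPKM) overlapped between libraries, but within each of the 12 libraries *JAG2* was higher, by 1.79 to 3.81 times. *MIB2* was above *NOTCH1* (0.92 to 1.52 RPKM) in 9 of 12 libraries, so that this pair did not differ beyond its spread. *MIB1* had 15.6 to 19.4 RPKM in the 6 WT libraries and 3.34 to 3.88 RPKM in the 6 KO libraries. It thus stood above *JAG1* in every WT library and within the range of *JAG2* in every KO library, and it remained above *MIB2*, which did not exceed 2.83 RPKM.

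**Figure D1:**
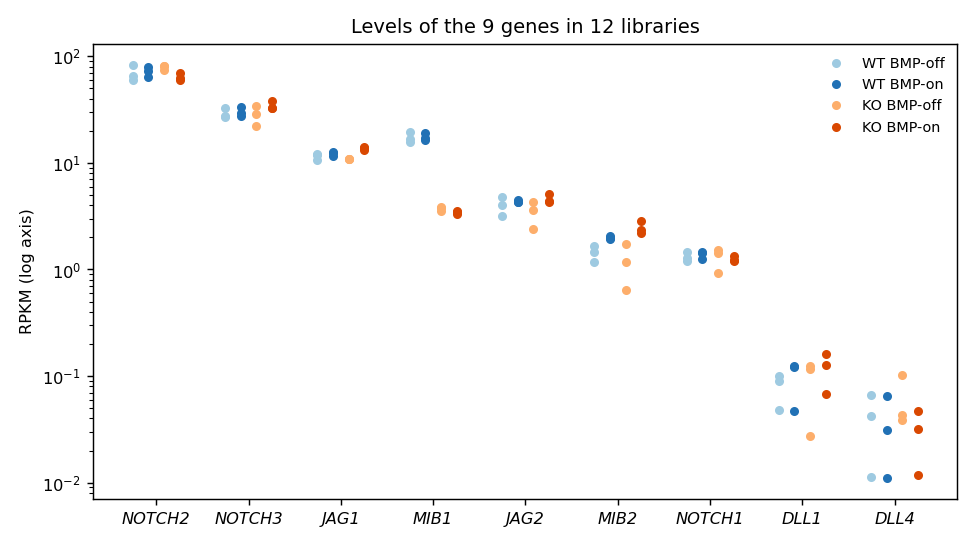
Level of each of the 9 genes in RPKM on a log axis, with 1 point per library and a color per group. *NOTCH2*, *NOTCH3* and *JAG1* occupy separate ranges, *MIB1* splits into 15.6 to 19.4 RPKM in WT and 3.34 to 3.88 RPKM in KO libraries, and *DLL1* and *DLL4* lie at 0.16 RPKM or lower.

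The Delta-type ligands *DLL1* and *DLL4* were close to absent. *DLL1* had 4, 7 and 6 counts in WT BMP-off, 9, 11 and 4 in WT BMP-on, 10, 2 and 9 in KO BMP-off and 13, 4 and 10 in KO BMP-on. *DLL4* had between 1 and 8 counts in every library. Neither gene passed the filter on low counts, and a fit without that filter gave edgeR adjusted p-values of 0.546 to 1 for both genes in all 5 comparisons. For *DLL1* in the BMP response of KO cells, this fit gave a log2 difference of 0.47 with a standard error of 0.49, so that a change of this size was not detectable at this depth. *DLL1*, on chromosome 6 from 170282206 to 170306565, also shares 370 bases of exon with *FAM120B* on the opposite strand, which had 1243 to 1730 counts, and whether the counting used the strand is not given in the sources used here. The remaining 7 genes were tested.

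*MIB1*, the targeted gene, lies on chromosome 18 from 21704957 to 21870953 on the plus strand (GRCh38, GENCODE v44). Its values in CPM are counts scaled to a common library size by the TMM method of edgeR. In WT cells it had 176, 144 and 154 CPM with BMP-off and 158, 175 and 153 CPM with BMP-on. In KO cells it had 34.2, 34.4 and 32.5 CPM with BMP-off and 33.0, 31.0 and 32.0 CPM with BMP-on. All 6 KO libraries lay below all 6 WT libraries, with no overlap in either BMP state. With BMP-on, KO libraries held 19.7% of the WT mean, a log2 fold change of -2.34 with a standard error of 0.073 (edgeR quasi-likelihood test with Benjamini-Hochberg adjustment, adjusted p = 9.70e-12). With BMP-off they held 21.4%, a log2 fold change of -2.23 with a standard error of 0.072 (edgeR Benjamini-Hochberg adjusted p = 1.85e-11). In bulk RNA, fewer cells that hold the transcript and less transcript per cell cannot be told apart. BMP itself did not change *MIB1* past the test, with a log2 difference of 0.04 in WT cells (standard error 0.067, edgeR adjusted p = 0.838). The corresponding value in KO cells was -0.07 (standard error 0.075, edgeR adjusted p = 0.521).

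*MIB1* was the single gene of the 7 that passed the test between KO and WT in either BMP state. With BMP-off, 1 of 7 was lower in KO cells and 0 were higher, where 0.0407% of all genes tested were called, 0.0349% as lower and 0.00582% as higher. Its groups were also the single ones of the 7 that did not overlap with BMP-off, beside 11.7% of all genes. With BMP-on, the count was again 1 of 7 lower and 0 higher, where 3.67% of all genes were called, 2.34% as lower and 1.32% as higher. The other genes gave log2 differences of KO against WT with BMP-off between -0.28 for *MIB2* (standard error 0.28) and 0.18 for *NOTCH2* (standard error 0.11), with edgeR adjusted p-values of 0.580 to 0.952. Without KO BMP-off replicate 2, the *MIB2* difference was 0.02 and that of *JAG2* 0.00, against -0.21 with it. After the GC trend correction they were -0.10 and -0.05 (edgeR adjusted p of 0.801 and 0.849). With BMP-on they lay between -0.17 for *NOTCH2* (standard error 0.11) and 0.31 for *MIB2* (standard error 0.25), with edgeR adjusted p-values of 0.0809 to 0.920. The smallest of these p-values belonged to *JAG1*, with 67.1, 72.0 and 73.9 CPM in WT BMP-on and 81.2, 83.2 and 78.3 CPM in KO BMP-on. These 2 groups did not overlap, and neither did those of *MIB1* and *MIB2*, so that 3 of 7 genes had separate groups, beside 23.6% of all genes tested. The *JAG1* difference was 0.19 on the log2 scale with a standard error of 0.055 (edgeR adjusted p = 0.0809). It passed the threshold in 3 alternative fits, among them the GC trend correction (log2 difference 0.18, edgeR adjusted p = 0.0201), and did not in the others. The means of *MIB2* were 7.49 ± 0.314 CPM in WT BMP-on and 9.29 ± 1.27 CPM in KO BMP-on (SD, n = 3), and the difference did not pass the test (edgeR adjusted p = 0.663), nor at 0.19 on the log2 scale with the GC trend correction (edgeR adjusted p = 0.355).

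**Figure D2:**
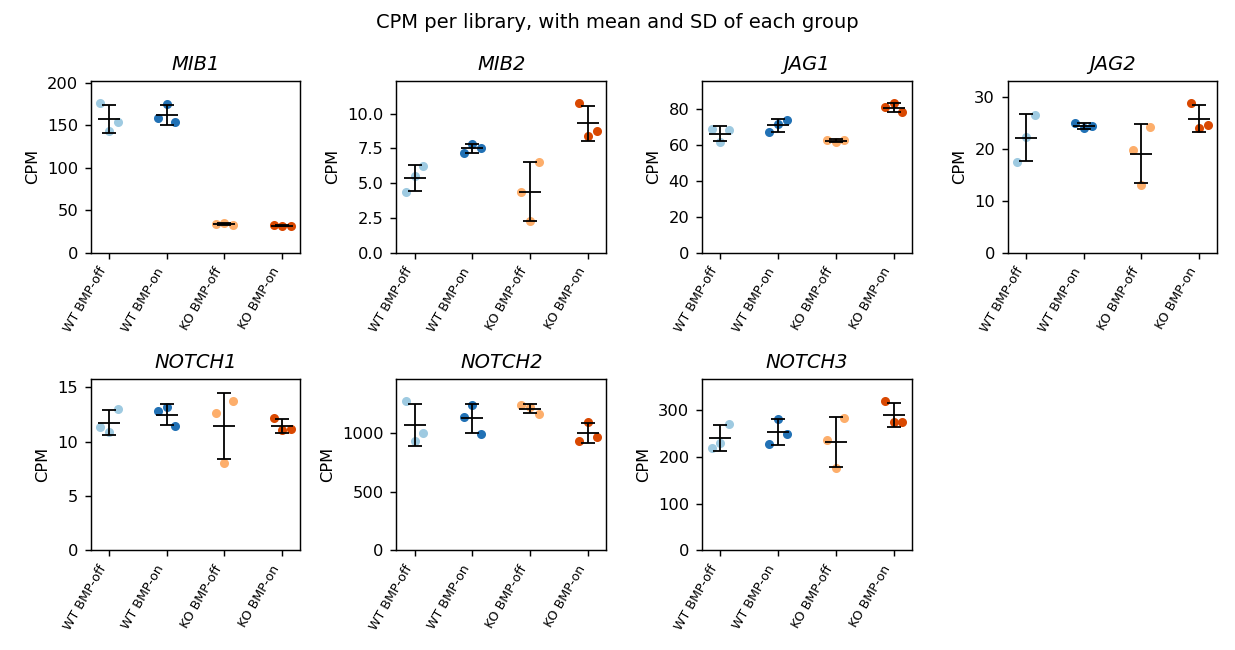
CPM of the 7 tested genes in each library (points), with the mean and SD of each group of 3 (bars). *MIB1* is low in all 6 KO libraries, and *JAG1* and *MIB2* are highest in the 3 KO BMP-on libraries, at 78.3 to 83.2 CPM and 8.36 to 10.7 CPM.

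In WT cells, none of the 7 genes passed the test between BMP-on and BMP-off. By edgeR 0 of 7 were called, with 0 at an unadjusted p under 0.05 and 0 by DESeq2 or limma-voom, where edgeR called 3.92% of all genes tested, 1.91% as higher and 2.01% as lower. All 7 log2 differences were positive, from 0.04 for *MIB1* to 0.49 for *MIB2*, with a median of 0.09 against 0.00 over all genes tested. *MIB2* had 4.35, 5.52 and 6.23 CPM with BMP-off and 7.17, 7.80 and 7.51 CPM with BMP-on, and these groups did not overlap, in contrast to those of the other 6 genes, beside 23.9% of all genes with separate groups. Its log2 difference had a standard error of 0.26 (edgeR adjusted p = 0.424), and with the GC trend correction the difference was 0.30 (edgeR adjusted p = 0.125). *JAG1* had 69.2, 61.7 and 68.4 CPM with BMP-off and 67.1, 72.0 and 73.9 CPM with BMP-on, with a log2 difference of 0.10 and a standard error of 0.055 (edgeR adjusted p = 0.454).

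In KO cells, *JAG1* and *MIB2* rose with BMP-on. They were 2 of the 7 genes tested, with 0 lower, where 22.0% of all genes were called, 11.1% as higher and 10.9% as lower. The median log2 difference of the 7 was 0.32, against 0.01 over all genes tested, and with the GC trend correction it was 0.0055, against -0.01. A share of 2 in 7 is near that background, so that the count says little about the 7 genes as a group, and the values of the 2 genes are given next.

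*JAG1* encodes Jagged1, the ligand with the highest level here, and spans 10637684 to 10673999 on the minus strand of chromosome 20. In KO cells it had 62.8, 61.6 and 62.8 CPM with BMP-off and 81.2, 83.2 and 78.3 CPM with BMP-on. The 3 BMP-on libraries were all above the 3 BMP-off libraries, and the SD was 0.719 and 2.49 CPM. The rise was 1.30-fold, a log2 fold change of 0.37 with a standard error of 0.055 (edgeR quasi-likelihood, Benjamini-Hochberg adjusted p = 0.000144). It passed the test in each of 34 alternative fits, with a log2 fold change between 0.35 and 0.39 when any library was left out and between 0.31 and 0.39 under the other settings. Of the 34, 12 left out a library under the GC trend correction, with trends estimated from all libraries, so that these are not separate checks of that correction. The longest *JAG1* transcript has 49.6% GC, and the GC trend of the libraries at that value was between -0.02 and 0.01 on the log2 scale. The test of the difference between the BMP responses of KO and WT cells gave 0.28 on the log2 scale with a standard error of 0.078, which did not pass (edgeR adjusted p = 0.196). With the GC trend correction this difference was 0.27 and its edgeR adjusted p 0.0497.

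*MIB2* lies on chromosome 1 from 1615454 to 1630605 on the plus strand. In KO cells it had 4.36, 2.29 and 6.52 CPM with BMP-off and 10.7, 8.36 and 8.78 CPM with BMP-on. The groups did not overlap, but the BMP-off libraries spread widely, with KO BMP-off replicate 2 lowest. The mean rose from 4.39 ± 2.12 to 9.29 ± 1.27 CPM (SD, n = 3), which is 2.13-fold by the fit, a log2 fold change of 1.09 with a standard error of 0.26 (edgeR quasi-likelihood, Benjamini-Hochberg adjusted p = 0.0134). It was the single gene of the 7 in this comparison that also passed a log2 fold change of 1, as did 1.66% of all genes. The call was lost without KO BMP-on replicate 1 (log2 fold change 0.97, edgeR adjusted p = 0.0567) and in a fit of the KO libraries alone (edgeR adjusted p = 0.0587). The log2 fold change was 0.79 without KO BMP-off replicate 2 and 1.45 without KO BMP-off replicate 3. The difference between the BMP responses of KO and WT cells was 0.60 with a standard error of 0.37 and did not pass the test (edgeR adjusted p = 0.567), and it was 0.30 with the GC trend correction (edgeR adjusted p = 0.474). *MIB2* shares 180 bases of exon with an antisense lncRNA that had 44 to 70 counts per library, beside 57 to 280 for *MIB2*.

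The promoters of *JAG1* and *MIB2*, the 2 genes that rose with BMP-on in KO cells, are shown because the SMAD proteins that carry BMP signals bind GC-rich elements. The sequences are from RefSeq on GRCh38.p14, run 5′ to 3′ on the strand of the gene and end upstream of the annotated gene. An entry was found for 8 of the 9 genes, and 2 starts were listed for *MIB2*, of which the first is printed. *JAG1* covers chr20:10674000-10674249 on the minus strand and *MIB2* chr1:1615250-1615453 on the plus strand. Capitals mark the letters GGCGCC, which read the same on both strands.
JAG1: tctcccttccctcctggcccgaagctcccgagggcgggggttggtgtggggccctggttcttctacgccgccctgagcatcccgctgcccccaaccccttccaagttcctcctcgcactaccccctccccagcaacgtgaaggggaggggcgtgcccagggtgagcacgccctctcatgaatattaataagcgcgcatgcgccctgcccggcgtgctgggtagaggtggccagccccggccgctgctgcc
MIB2: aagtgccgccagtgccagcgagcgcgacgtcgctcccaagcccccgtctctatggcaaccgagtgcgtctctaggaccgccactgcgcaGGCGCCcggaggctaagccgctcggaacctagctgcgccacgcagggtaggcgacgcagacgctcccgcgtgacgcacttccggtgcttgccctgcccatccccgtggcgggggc
The *JAG1* window holds 0 matches and the *MIB2* window 1, which begins 161 bases upstream of the RefSeq start. Of 35116 promoter windows of 250 bases, 16.38% hold GGCGCC. Among the other genes, *JAG2* has 2 matches and *NOTCH1* 1, and neither passed the test in any of the 5 comparisons in the fit of all 12 libraries with TMM scaling. TGGGAA, the core of the RBPJ site, was searched on both strands and had 0 matches in the windows of these genes, whereas 20.85% of all windows hold it. A match is a run of letters and was not tested for binding.

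The other 5 genes, *MIB1* among them, did not pass the test for BMP in KO cells. On GRCh38, *NOTCH2* spans 119911553 to 120100779 on chromosome 1, *JAG2* spans 105140982 to 105168824 on chromosome 14, *NOTCH1* spans 136494433 to 136546048 on chromosome 9 and *NOTCH3* spans 15159038 to 15200995 on chromosome 19, all on the minus strand. *NOTCH2* had 1237, 1218 and 1163 CPM with BMP-off and 935, 1092 and 970 CPM with BMP-on. These groups did not overlap, as was the case for 3 of 7 genes and 35.8% of all genes, and the log2 difference was -0.27 with a standard error of 0.11 (edgeR adjusted p = 0.113). It passed the threshold in 4 alternatives, by DESeq2 (adjusted p = 0.0489), by limma-voom (adjusted p = 0.0247), in an edgeR fit of the KO libraries alone (adjusted p = 0.0127) and in edgeR without WT BMP-off replicate 1 (adjusted p = 0.0229). Reads of *NOTCH2* can be shared with its near-identical NOTCH2NL copies, so that its counts are uncertain to that extent. *NOTCH2NLA* was given 0 to 7 counts, and the other copies looked up had no entry among the counts. *JAG2*, a further Jagged ligand, had 19.9, 13.1 and 24.4 CPM with BMP-off and 28.8, 24.1 and 24.7 CPM with BMP-on. *NOTCH3* had 237, 177 and 283 CPM with BMP-off and 320, 275 and 276 CPM with BMP-on. In both genes the groups overlapped, and KO BMP-off replicate 2 was the lowest of all 12 libraries. The log2 differences were 0.44 for *JAG2* (standard error 0.20, edgeR adjusted p = 0.143) and 0.32 for *NOTCH3* (standard error 0.15, edgeR adjusted p = 0.159). Both passed the threshold without KO BMP-off replicate 3, at 0.63 (edgeR adjusted p = 0.0247) and 0.47 (edgeR adjusted p = 0.0321). *NOTCH3* also passed by limma-voom (adjusted p = 0.0341). *NOTCH1* had 12.7, 7.99 and 13.7 CPM with BMP-off and 12.1, 11.0 and 11.1 CPM with BMP-on, and its log2 difference was 0.00 (standard error 0.15, edgeR adjusted p = 0.997).

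**Figure D3:**
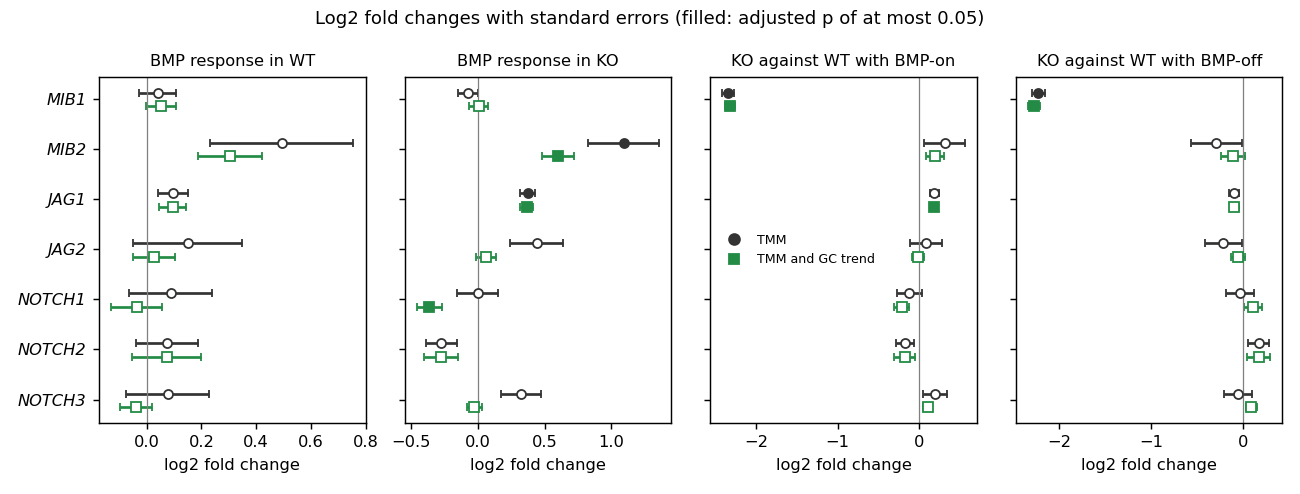
Log2 fold changes (points) and standard errors (lines) of the 7 tested genes in 4 comparisons, with TMM scaling (black circles) and with an added correction for the GC trend of each library (green squares), and with filled symbols at an adjusted p of at most 0.05. *JAG1* in the BMP response of KO cells stays at 0.37, *MIB2* moves from 1.09 to 0.60, *NOTCH3* from 0.32 to -0.03 and *NOTCH1* from 0.00 to -0.36.

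Of the 7 tested genes, *MIB2*, *JAG2*, *NOTCH1* and *NOTCH3* are rich in GC, with 68.4%, 64.1%, 63.3% and 63.1% in the longest transcript, above 94.3% or more of the genes tested. All 4 were lowest in KO BMP-off replicate 2, the library with the lowest GC trend, measured as Spearman's rho across genes between the deviation of a library from the mean and GC content. This rho was -0.36, -0.64 and 0.19 in the KO BMP-off libraries and 0.44, 0.25 and 0.11 in the KO BMP-on libraries. In WT cells it was -0.36, 0.03 and 0.24 with BMP-off and 0.07, 0.31 and 0.25 with BMP-on. At the GC content of *MIB2*, the trend was lowest in KO BMP-off replicate 2, at -0.73 on the log2 scale, and highest in KO BMP-on replicate 1, at 0.40.

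With the trend of each library added to the fit, the BMP response of *MIB2* in KO cells was 0.60 on the log2 scale with a standard error of 0.12 and still passed (edgeR adjusted p = 0.000557). The corrected means were 5.04 ± 1.22 CPM with BMP-off and 7.83 ± 0.289 CPM with BMP-on (SD, n = 3). Leaving out each library in turn under this correction, which was added after the data were seen, gave 0.47 to 0.78 with a largest edgeR adjusted p of 0.00496. The trends in these fits were still those estimated from all 12 libraries, so that the library left out kept a part in them. For *JAG2* the corrected difference was 0.06 (standard error 0.077, edgeR adjusted p = 0.623) and for *NOTCH3* -0.03 (standard error 0.058, edgeR adjusted p = 0.795). *NOTCH3* then had 263 ± 10.5 CPM with BMP-off and 258 ± 4.74 CPM with BMP-on (SD, n = 3). *NOTCH1* moved the other way and was lower with BMP-on after correction, at -0.36 with a standard error of 0.095 (edgeR adjusted p = 0.00639), from 13.0 ± 1.41 to 10.2 ± 0.168 CPM (SD, n = 3). Corrected values of *JAG1* were 62.5 ± 0.322 and 80.6 ± 2.37 CPM (SD, n = 3), with a log2 fold change of 0.37. With the correction 24.7% of all genes were called in this comparison.

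**Figure D4:**
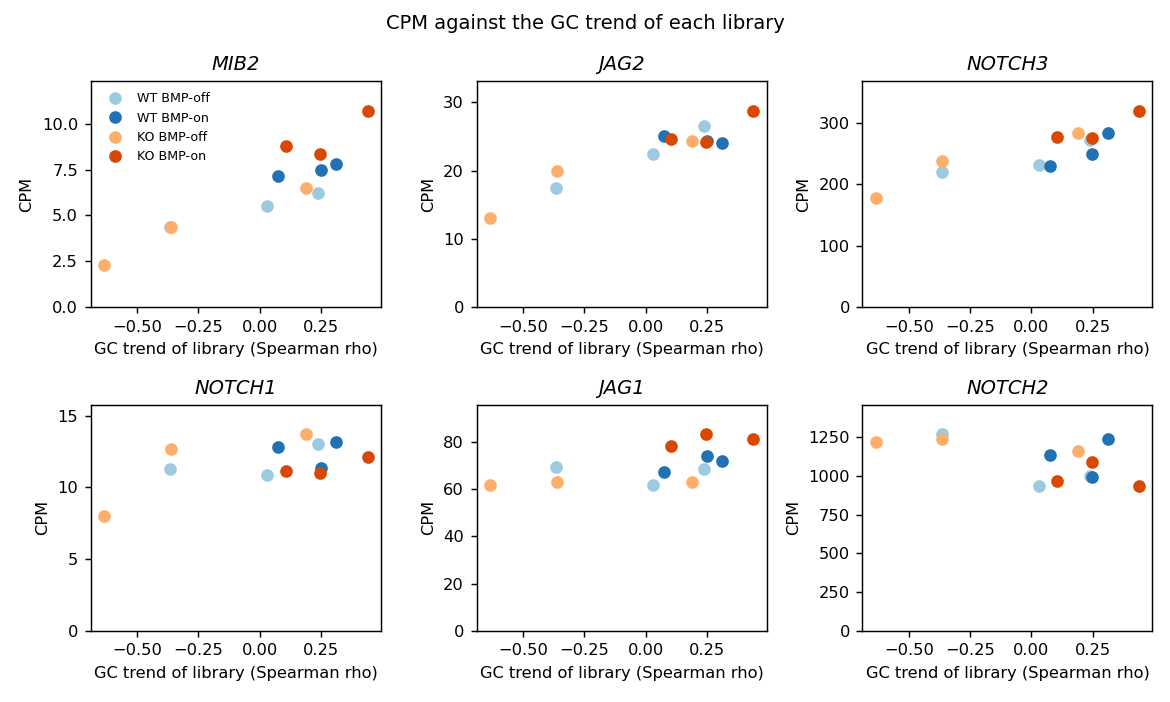
CPM of 6 genes (vertical axes) against the GC trend of each library (horizontal axes, Spearman's rho across genes), with 1 point per library colored by group. *MIB2*, *JAG2* and *NOTCH3* are lowest in the library with a rho of -0.64, whereas *JAG1* stands apart in KO BMP-on alone, at 78.3 to 83.2 CPM.

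No gene of the 7 passed the test of the difference between the BMP responses of KO and WT cells. By edgeR 0 of 7 were called, with 1, *JAG1*, at an unadjusted p under 0.05 and 0 by DESeq2 or limma-voom, where edgeR called 0.0931% of all genes tested. The log2 differences ran from -0.35 for *NOTCH2* (standard error 0.16) to 0.60 for *MIB2*, with edgeR adjusted p-values of 0.196 to 0.891. Under the GC trend correction the difference of *JAG2* moved from 0.29 to 0.04, that of *NOTCH3* from 0.25 to 0.01 and that of *NOTCH1* from -0.09 to -0.32, and *JAG1* passed as given above. The WT and KO comparisons with BMP share no libraries with each other, but each comparison of KO with WT shares its libraries with both of them.

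Over the 12 libraries, the genes whose log2 CPM was most like that of *JAG1* were *FBLN5* (Pearson's r = 0.95), *SIDT2* (r = 0.94) and *BHLHE40* (r = 0.93). In KO cells these rose with BMP-on by 0.41, 0.43 and 0.26 on the log2 scale (edgeR adjusted p = 0.000248, 0.000319 and 0.000211). They were picked by their likeness to *JAG1* over the same libraries, so that a rise with it was built into the choice. Their p-values are therefore no separate support. For *MIB2* the closest were *RAB11B*, *CLCN7* and *SPHK2*, each with an r of 0.99 and with transcripts of 63.1%, 64.1% and 63.2% GC. Among the 7 genes, *MIB2* had an r of 0.94 with *JAG2* and 0.90 with *NOTCH3*, both GC-rich, and of 0.74 with *JAG1*. For *MIB1* they were *DPAGT1* (r = 0.98), *MATN3* (r = 0.91) and *BMPER* (r = 0.90). *DPAGT1* was lower in KO than in WT cells by far less than *MIB1*, with log2 differences of -0.16 with BMP-on (standard error 0.040, edgeR adjusted p = 0.0396) and -0.15 with BMP-off (edgeR adjusted p = 0.292). These correlations are descriptions over libraries that share groups, depth and GC trend, and they were picked as the highest among all genes with at least 50 counts on average. The p-values of *DPAGT1* are subject to the same choice.

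The rest of the pathway was read from 78 genes in 8 lists, of which 71 were tested. In KO cells, 21 rose and 8 fell with BMP-on, where 22.0% of all genes were called, 11.1% as higher and 10.9% as lower. Among ubiquitin ligases of ligands and factors of ligand endocytosis, 5 of 7 rose and 0 fell. With the GC trend correction 2 of these 7 rose and 0 fell, and their median log2 difference moved from 0.45 to 0.14. The 5 uncorrected calls were *NEURL1*, *NEURL2* and *NEURL4* of the Neuralized family and the epsins *EPN2* and *EPN3*. Of these, *EPN3* was at 1.59 on the log2 scale (standard error 0.32, edgeR adjusted p = 0.00218) but at 6 to 27 counts per library in KO cells. Among genes of receptor maturation and glycosylation, 4 of 8 rose and 1 fell, and with the correction 3 rose and 1 fell. Of these, *LFNG*, a Fringe glycosyltransferase that modifies Notch receptors, rose by 1.24 (standard error 0.16, edgeR adjusted p = 5.09e-05), and *GXYLT1*, a xylosyltransferase, fell by 0.35 on the log2 scale (standard error 0.090, edgeR adjusted p = 0.0132).

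Of the receptor cleavage genes, which encode ADAM proteases and subunits of γ-secretase, 0 of 8 rose and 3 fell. Over all genes tested, 11.1% were called as higher and 10.9% as lower, the shares beside this and the following uncorrected counts. Of the nuclear complex and its corepressors, 4 of 20 rose and 1 fell, which was *RBPJ* itself (log2 fold change -0.18, and with the GC trend correction -0.08, edgeR adjusted p = 0.103). Of receptor trafficking and turnover, 4 of 15 rose and 3 fell, and the largest declines were in the Deltex family ubiquitin ligases *DTX4* at -0.73 (standard error 0.090, edgeR adjusted p = 2.55e-05) and *DTX3L* at -0.43 (standard error 0.061, edgeR adjusted p = 8.59e-05). Of the target genes, 4 of 9 rose, led by *HEY1* at 2.31 (standard error 0.087, edgeR adjusted p = 3.65e-11), and 0 fell. After correction for the GC trend 2 of 9 rose, *HEY1* and *HES1*, and 3 fell, which were *HES4* at -0.72, *HES7* at -0.67 and *NRARP* at -0.56 (edgeR adjusted p of 0.00239, 0.000626 and 0.000647). *HEY1* and *HES1* are known to respond to BMP as well, so that the list does not read Notch activity alone. The 3 further ligands tested and *NOTCH4* gave 0 calls, but with the correction *DLL3* at -0.52 and *DNER* at -0.32 were lower (edgeR adjusted p of 0.0268 and 0.0160). The median log2 difference of the 71 genes was 0.01, the same as over all genes tested to 2 decimals. With the GC trend correction, 11 rose and 12 fell, where 24.7% of all genes were then called. Of the uncorrected calls, 10 of the 21 that rose and 4 of the 8 that fell kept their call and direction. *NEURL1*, *NEURL2* and *NEURL4* did not pass after correction, and *EPN2*, *EPN3*, *LFNG*, *GXYLT1*, *DTX4*, *DTX3L* and *HEY1* did. With each library left out, the total of 29 called genes became 15 to 39, where 13.2% to 30.4% of all genes were called. It was 15 without KO BMP-on replicate 1 (13.2% of all genes) and 19 without KO BMP-off replicate 1 (14.9%).

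**Figure D5:**
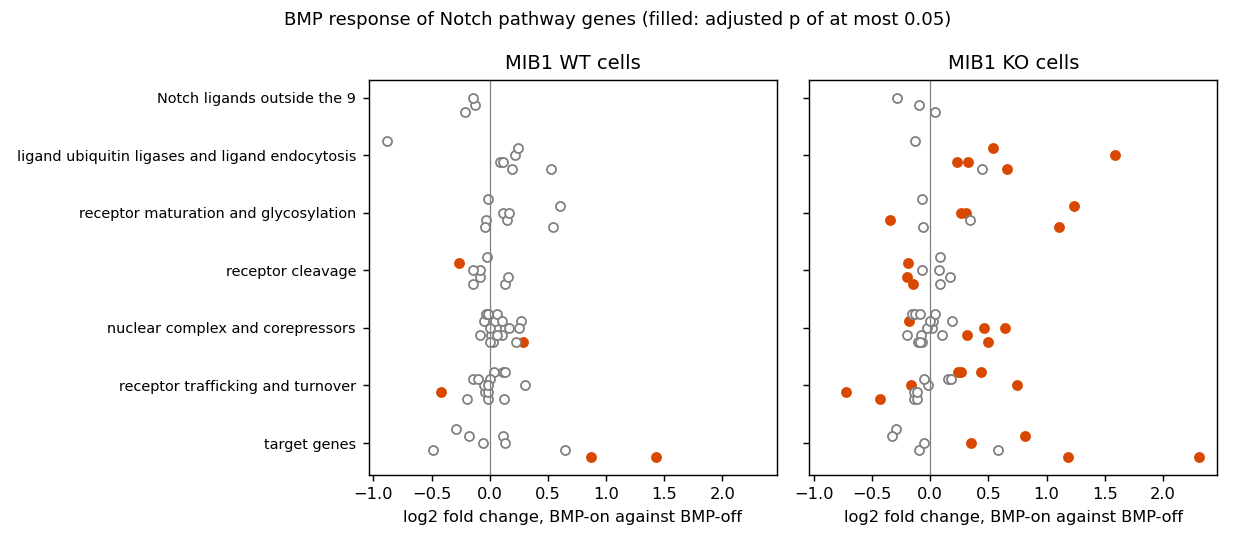
Log2 fold changes of BMP-on against BMP-off for genes of 7 pathway lists, in MIB1 WT (left) and MIB1 KO cells (right), with 1 point per gene, filled at an adjusted p of at most 0.05. The outermost filled points on the right are *HEY1* at 2.31 and *DTX4* at -0.73.

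In WT cells, 5 of the 71 genes passed the test for BMP, with 3 higher and 2 lower, where 3.92% of all genes were called. These were *HEY1* at 1.43, *HES1* at 0.87 and the coactivator *MAML3* at 0.28 on the log2 scale, and *APH1B*, a subunit of γ-secretase, at -0.26 and *DTX4* at -0.42 (edgeR adjusted p of 1.13e-07, 7.30e-06, 0.0311, 0.0196 and 0.00861). This total was 3 without WT BMP-off replicate 1, 2 or 3 or WT BMP-on replicate 2 or 3, where 2.31% to 3.29% of all genes were called. It was 10 without KO BMP-off replicate 2 (6.39% of all genes) and 8 without KO BMP-off replicate 3 (4.83%). The GC trend correction gave 14, with 6 higher and 8 lower, where 8.96% of all genes were then called, and all 5 kept their call and direction. Between KO and WT cells with BMP-on, 3 were higher and 1 was lower, where 3.67% of all genes were called. *HEY1* was higher by 1.26, *EPN3* by 1.18 and *HES1* by 0.55, and *DTX4* was at -0.56 (edgeR adjusted p of 1.57e-07, 0.0375, 0.000620 and 0.00160). The corrected fit called 5 as higher and 3 as lower, where 7.39% of all genes were then called, and these 4 kept their call and direction. With BMP-off, 0 of 71 were called by edgeR, DESeq2 or limma-voom, and 14 had an unadjusted edgeR p under 0.05, where 0.0407% of all genes were called. Without WT BMP-off replicate 1 the count was 1, where 0.228% of all genes were called. After the GC trend correction 1 was lower, where 0.559% of all genes were then called. Over all settings other than a library left out, the count ran from 0 to 2, where 0.0146% to 0.673% of all genes were called. *HEY1* was the single gene of the 71 for which the BMP response differed between KO and WT cells (log2 difference 0.88, edgeR adjusted p = 0.0112), where 0.0931% of all genes were called. Without WT BMP-off replicate 3, WT BMP-on replicate 2 or 3, KO BMP-off replicate 1 or KO BMP-on replicate 2 or 3 this count was 0. In these fits 0.0228% to 0.0286% of all genes were called. Without WT BMP-off replicate 1 it was 2, where 1.35% of all genes were called. The GC trend correction also gave 2, *HEY1* (0.91, edgeR adjusted p = 0.000846) and *FURIN* (0.36, edgeR adjusted p = 0.00380), which encodes a protease of receptor maturation, where 1.37% of all genes were then called.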

How the data were processed

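RNA-seq of 12 libraries in 4 groups of 3 was used, with groups taken from the sample labels. The authors discarded ribosomal reads, aligned single-end reads to GRCh38 with GSNAP and deposited whole-number counts by HTSeqGenie. The paper names exons of RefSeq genes as what was counted, whereas the deposited counts carry Ensembl identifiers. Which annotation was counted is therefore uncertain. The authors also deposited RPKM values, which were used here for levels between genes and for alternatives. The preparation kit used and the strand setting were not given in the sources used here. Symbols and positions came from GENCODE v44, and 57532 of 58302 identifiers had a symbol.

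The test used edgeR 4.0.16 in R 4.3.3 (TMM, filterByExpr, robust quasi-likelihood fit over all 12 libraries, group as the single term). P-values were adjusted over 17188 genes within each of 5 comparisons, and changed means an adjusted p of at most 0.05. The self-test on simulated counts found 100% of changes of 1 and 77% of changes of 0.5 on the log2 scale for BMP in KO cells. For changes of 0.5 it found 86% between KO and WT with BMP-on and 57% in the interaction. The simulation gave every gene the common dispersion of 0.0043 and no GC trend, and changed only genes with a mean of at least 50 counts. These shares therefore do not hold for genes with a wider spread, such as *MIB2* with a standard error of 0.26 for BMP in KO cells. Alternatives were DESeq2 1.42.0, limma-voom (limma 3.58.1) with quantile normalization, library size scaling, no filter, a replicate block, only the groups compared, an offset for the GC trend (loess, span 0.4, GC of the longest transcript), log2(RPKM + 1) and log2(RPKM + 0.1) with a mean RPKM of at least 0.1, log2(RPKM + 1) unfiltered, an added fold change threshold, and each library left out. The members, lists and tests were chosen with earlier results of these data known. Named genes are the 9 members, pathway genes that passed a test (at most the 3 largest in each direction where more than 6 did) and the 3 genes most like *MIB1*, *MIB2* and *JAG1*. *NEURL1*, *NEURL2*, *NEURL4*, *EPN2*, *RBPJ*, *HES4*, *HES7*, *NRARP*, *DLL3*, *DNER*, *FURIN* and *NOTCH2NLA* were named after their values were seen.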

Additional observations from a re-analysis of the deposited data

Results flagged for a closer look

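The BMP response of *HEY1*, a target gene shared by Notch and BMP signaling, differed between KO and WT cells by 0.88 on the log2 scale (standard error 0.13, edgeR interaction test with Benjamini-Hochberg adjusted p = 0.0112), from 6.66 to 33.0 CPM in KO cells and from 5.14 to 13.8 CPM in WT cells. The call was lost without WT BMP-off replicate 3, WT BMP-on replicate 2 or 3, KO BMP-off replicate 1 or KO BMP-on replicate 2 or 3, with the replicate block and with log2(RPKM + 0.1) values.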

How the results depend on the processing

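With 3 libraries a group and the spread of 1 clone, changes under 0.5 on the log2 scale can be missed. Larger ones can be missed in genes with a wide spread, such as *MIB2* with a standard error of 0.37 in the interaction. The lower *MIB1* in KO cells passed in all 22 alternatives in both BMP states, at -2.38 to -2.28 with BMP-on and -2.29 to -2.13 with BMP-off when each library was left out, and the rise of *JAG1* in KO cells in all 34. The number of genes of the 7 that passed was 0 to 1, 1 to 4, 1, 1 and 0 with each library left out, in the order BMP response in WT, BMP response in KO, KO against WT under BMP-on, KO against WT under BMP-off and interaction. The share of all genes called in these fits was 2.09% to 6.39%, 13.2% to 30.4%, 1.86% to 4.93%, 0.0114% to 0.286% and 0.0228% to 1.35%. The number was 1 for the BMP response in WT in a fit of only the groups compared and without KO BMP-off replicate 2 (*MIB2* in both). In these 2 fits 5.99% and 6.39% of all genes were called. For the BMP response in KO it was 4 by limma-voom (24.3% of all genes called) and without KO BMP-off replicate 3 (30.4%). It was 1 without KO BMP-on replicate 1 (13.2%) and with the added fold change threshold (1.66%). For KO against WT under BMP-on it was 2 with library size scaling (3.31% of all genes called), with the GC trend correction (7.39%) and in a fit of only the groups compared (7.39%). For the interaction it was 1 with the GC trend correction (1.37%). Directions turned with the GC trend correction for *NOTCH1* (-0.037) and *NOTCH3* (-0.040) in the BMP response of WT, *MIB1* (0.0055) and *NOTCH3* (-0.027) in that of KO, *JAG2* (-0.014) with BMP-on, and *NOTCH1* (0.11) and *NOTCH3* (0.094) with BMP-off. *NOTCH1* in the BMP response of KO turned with library size scaling (0.019). With each library left out, ranges that crossed 0 were -0.023 to 0.13 for *MIB1*, -0.012 to 0.22 for *NOTCH2* and -0.0086 to 0.17 for *NOTCH3* in WT, -0.20 to 0.13 for *NOTCH1* in KO, -0.0065 to 0.12 for *JAG2* with BMP-on, -0.65 to 0.017 for *MIB2*, -0.40 to 0.00056 for *JAG2*, -0.16 to 0.17 for *NOTCH1* and -0.20 to 0.11 for *NOTCH3* with BMP-off, and -0.29 to 0.039 for *NOTCH1* in the interaction. None of the values that turned direction passed the test where they turned, and the cause was not tested. The labels do not say whether equal replicate numbers mark paired cultures. Deviations from the group means correlated above 0.1 in 2 of 18 same-numbered pairs, at most 0.19, between KO and WT BMP-off replicate 3. This cannot decide on pairing, since pairs with different numbers were not compared. The replicate block gave 0, 2, 1, 1 and 0 genes of the 7 in the same order and turned *NOTCH1* in the BMP response of KO to 0.0063. With this block 3.08%, 19.9%, 2.79%, 0.0349% and 0.0175% of all genes were called.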
